A study of Drosophila melanogaster with 2 samples.

Results

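Asciz, a zinc finger transcription factor also listed as CG14962, left 439 reproducible peaks between 501 and 2000 bp upstream of the nearest transcription start site (TSS) of a protein-coding gene. They were chosen by position alone. The summit of the peak had to lie outside every annotated exon, the nearest annotated TSS had to be that of a protein-coding gene, and the summit had to be upstream of it by the strand of that gene. The other 4646 reproducible peaks lay elsewhere, so that these made up 8.63% of the list (95% Wilson interval 7.89 to 9.44%), and 386 genes were nearest to at least 1 of them. The intervals printed with shares are over peaks of a single list. They cover counting error only, and neighbouring peaks are not independent.

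The peaks came from chromatin immunoprecipitation and sequencing (ChIP-seq) of whole Drosophila melanogaster embryos, 0 to 24 h old and of pooled sexes. The flies were of the strain CG14962-GFP, a stable transgenic line that makes Asciz with GFP fused to its C terminus, and the antibody was raised against GFP. The 2 libraries, replicates 1 and 3 of that line, form a single group, with chromatin sonicated to 200 to 800 bp. No condition was varied and no embryos without the fusion protein were analysed here. What drives the fusion gene, and whether untagged Asciz was also present, is stated in none of the sources used here. A peak can come from any tissue and any hour of embryogenesis, because whole animals of mixed age were pooled.

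Sequence upstream of a TSS holds the promoter and, further out, many of the enhancers to which transcription factors bind. Many fly genes have several promoters, so a stretch that lies upstream of an internal TSS can at the same time be an intron of the longer transcripts of that gene. The nearest gene is a matter of position and need not be the gene a bound site acts on. Asciz is best known for binding the promoter of ctp, the gene of the dynein light chain LC8, through its zinc fingers. The ctp promoter peak lies too close to its TSS to be among the 439.

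Of the 9 highest upstream summits, 8 are shown first, without that of HmgZ, because their letters can be read against the A+T values given further on. The 8 windows below reach 50 bp to either side of the summit and are printed 5′ to 3′ on the strand of the nearest gene from the release 6 assembly (dm6), and their capitals mark unbroken runs of 8 or more A or T. The cbt window is chr2L:481005-481105 on the minus strand, the jp window chr2L:9567461-9567561 on the minus strand and the Lk6 window chr3R:11761005-11761105 on the minus strand. The Reph window is chr2L:3804709-3804809 on the plus strand, the chif window chr2L:16351190-16351290 on the minus strand and the NFAT window chrX:13640450-13640550 on the plus strand. The Tre1 window is chrX:5678031-5678131 on the minus strand and the RasGAP1 window chr3L:9855908-9856008 on the minus strand.
cbt: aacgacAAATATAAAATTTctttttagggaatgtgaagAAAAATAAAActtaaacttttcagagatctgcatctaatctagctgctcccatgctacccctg
jp: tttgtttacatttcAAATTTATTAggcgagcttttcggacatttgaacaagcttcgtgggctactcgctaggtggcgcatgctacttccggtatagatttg
Lk6: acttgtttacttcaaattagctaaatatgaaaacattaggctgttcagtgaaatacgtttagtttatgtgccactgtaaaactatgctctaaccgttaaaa
Reph: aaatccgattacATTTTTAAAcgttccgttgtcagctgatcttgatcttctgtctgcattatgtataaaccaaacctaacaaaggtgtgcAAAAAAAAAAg
chif: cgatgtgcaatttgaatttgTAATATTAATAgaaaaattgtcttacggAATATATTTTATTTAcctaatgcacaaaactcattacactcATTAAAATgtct
NFAT: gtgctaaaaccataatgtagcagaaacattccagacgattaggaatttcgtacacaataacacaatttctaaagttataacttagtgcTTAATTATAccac
Tre1: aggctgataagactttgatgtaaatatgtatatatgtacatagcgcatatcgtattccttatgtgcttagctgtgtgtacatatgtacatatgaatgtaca
RasGAP1: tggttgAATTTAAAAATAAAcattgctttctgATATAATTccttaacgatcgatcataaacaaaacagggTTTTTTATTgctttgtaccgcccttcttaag

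The windows were rich in A and T but not alike. The chif window had 75.2% A+T and 3 runs, the longest of 15 bases. The RasGAP1 window had 69.3% A+T and 3 runs. The Lk6 window, also at 69.3%, and the Tre1 window, at 67.3%, held no run of this length. The jp window was the least A+T-rich of the 8, at 57.4%, with 1 run of 10 bases, and it lay below its own flanks at 60.4%.

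The first question was in what kind of sequence the upstream peaks lay. Of the 439, 221 (50.3%, 95% Wilson interval 45.7 to 55.0%) were in an intron of the very gene whose TSS was nearest, 52 (11.8%, 9.15 to 15.2%) were in an intron of another gene and 166 (37.8%, 33.4 to 42.4%) were intergenic. Of the 557 peaks at the same distances downstream of a TSS, 517 (92.8%) were in an intron of that gene and 27 (4.85%) were intergenic. A downstream position is inside the gene by construction unless the transcript is short, so that contrast is partly set by the definition. By the same definitions the 221 summits in introns of the nearest gene had to be upstream of an internal TSS. The other 218 had to be upstream of the 5′ end of their gene.

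**Figure D1:**
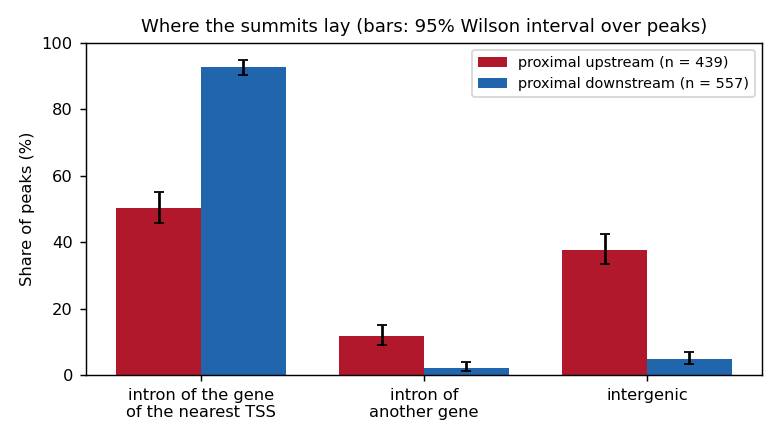
Share of peaks (vertical axis, %) by the kind of sequence that held the summit, for the 439 proximal upstream peaks (red) and the 557 proximal downstream peaks (blue), with 95% Wilson intervals over peaks. The upstream peaks were divided mainly between introns of the nearest gene (50.3%) and intergenic sequence (37.8%), whereas 92.8% of the downstream peaks were in introns of the nearest gene.

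Upstream sequence that met the rule amounted to 7.22 Mb, or 5.403% of the 6 chromosomes and arms used, and carried 60.8 summits per Mb. The 7.62 Mb of downstream sequence carried 73.1 summits per Mb, and the 6 chromosomes and arms as a whole 38.05 per Mb. The density within the upstream sequence was uneven. Sequence within a gene, 44.9% of it, held 84.3 summits per Mb, while the 55.1% that was intergenic held 41.7 per Mb. In downstream sequence the same densities were 80.5 per Mb in genic and 26.1 per Mb in intergenic parts. Weaker regions met the rule about as often as the reproducible peaks did. Among the 24914 regions of the pooled list outside the reproducible list, 2116 (8.49%) met it, against 8.63% of the reproducible peaks.

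The 166 intergenic peaks fell between genes in both arrangements. In 74 (44.6%) the neighbour on the far side was divergent, so that its 5′ end faced the summit, with a median distance from the summit to that gene of 3954 bp and a median signal of 191. In 92 (55.4%) the neighbour pointed the same way, with a median distance from the summit of 1841 bp and a median signal of 205. The rule keeps a divergent neighbour's 5′ end at least as far from the summit as the nearest TSS. It sets no such limit on the 3′ end of a neighbour that points the same way. The contrast of the distances is therefore partly set by the rule. A TSS of another gene lay within 2 kb of the summit for 66 (15.03%) of all 439 upstream peaks, against 175 (31.4%) of the downstream peaks.

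The upstream peaks thinned out with distance from the TSS only at first. The median distance was 993 bp (quartiles 662.5 and 1465.5 bp), against 1108 bp (803 and 1488 bp) for the downstream peaks. Between 501 and 750 bp there were 147 summits, 88.1 per Mb of sequence that met the rule at that distance. From 751 to 1000 bp there were 74, at 53.1 per Mb, and the 4 remaining bins of 250 bp held 52 to 57 summits each, at 45.6 to 58.3 per Mb. Downstream of the TSS the densities in the same 6 bins were 81.0, 85.1, 82.7, 67.9, 63.6 and 53.7 per Mb, so that the nearest downstream bin did not stand above the next. Just outside the rule, upstream summits 251 to 500 bp from the TSS had a density of 177 per Mb, and those 2001 to 2250 bp away 46.2 per Mb.

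**Figure D2:**
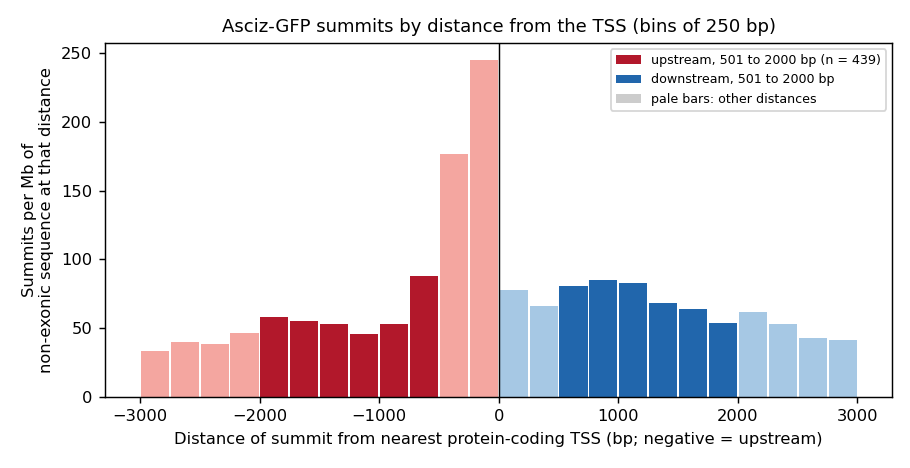
Summits per Mb of non-exonic sequence at each distance (vertical axis) in bins of 250 bp from the nearest protein-coding TSS (horizontal axis, bp, upstream negative). Dark red bars are the 439 proximal upstream peaks and dark blue bars the proximal downstream peaks, with other distances pale. Upstream density was 177 per Mb at 251 to 500 bp, 88.1 per Mb at 501 to 750 bp, between 45.6 and 58.3 per Mb from 751 to 2000 bp and between 33.4 and 46.2 per Mb from 2001 to 3000 bp.

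The distance bounds cut through a continuous spread of peaks. Nearest to the inner bound were GstE6, a glutathione transferase gene, with a signal of 171, CG17896 with 476 and CG43901 with 193, each 501 bp from the TSS. Just outside it were peaks of CG10479 at 498 bp with a signal of 701, of stv at 496 bp with 182 and of Exn at 496 bp with 239. Nearest to the outer bound were Fim, which encodes the actin-bundling protein fimbrin, at 1999 bp with 211, Glut4EF at 1997 bp with 142 and Eip75B at 1993 bp with 143. Beyond it were px at 2005 bp with 180, the potassium channel gene Irk1 at 2009 bp with 219 and Cyp6v1 at 2012 bp with 370. These values describe the edges and were not tested.

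The upstream peaks were of ordinary strength for this factor. The signal is the peak caller's own value as the authors deposited it, here from the list made of both libraries together. The median signal was 206 (quartiles 157 and 325) for the upstream peaks, 206 (156 and 309) for the downstream peaks, 219 (161 and 378) for the 1902 promoter peaks within 500 bp of a TSS and 205 (156 and 315) for all reproducible peaks. The lowest upstream peak had 127 and the highest 2106. When all reproducible peaks were ranked by signal, the upstream peaks supplied 44 (8.80%) of the first 500 and 92 (9.20%) of the first 1000, close to their 8.63% of the whole list.

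For values per library, each peak took the signal of the strongest region overlapping it in the library's own list. That signal, divided by its median over all reproducible peaks in the same library, is called the relative signal, and 1 is the typical reproducible peak of a library. The median relative signal of the upstream peaks was 1.04 in replicate 1 and 1.01 in replicate 3, a mean of 1.02 ± 0.0243 (SD, n = 2). That of the downstream peaks was 1.01 and 0.991, a mean of 0.998 ± 0.0107, and that of the promoter peaks 1.09 and 1.10, a mean of 1.09 ± 0.0128 (SD, n = 2 each). The upstream median was above the downstream and below the promoter median in each library. With 2 libraries an exact permutation test cannot give a p below 0.5, so no test was made. By context the medians were 1.08 and 1.07 in introns of the nearest gene, 0.973 and 1.16 in introns of another gene, and 0.991 and 0.984 in intergenic sequence, for replicates 1 and 3 in that order. The 52 peaks in introns of another gene thus changed place between the libraries, above the other 2 contexts in replicate 3 and below them in replicate 1.

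The highest upstream peak belonged to cbt (cabut), which encodes a zinc finger transcription factor of the Krüppel-like family. It lay at chr2L:480905-481273, ranked 6 among all reproducible peaks with a signal of 2106, and its summit was 1367 bp upstream of the cbt TSS. The position is within an intron of ush, which encodes a Friend-of-GATA cofactor and runs in the opposite direction. Replicate 1 gave it a relative signal of 8.13 and replicate 3 one of 10.8, a mean of 9.45 ± 1.86 (SD, n = 2). Each library put it far above its typical peak.

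Next came jp, the gene of junctophilin, which ties the plasma membrane to internal calcium stores in muscle and nerve. Its peak at chr2L:9567323-9567755 was intergenic, 761 bp upstream, with a signal of 1633. The relative signal was 6.996 in replicate 1 and 8.03 in replicate 3, a mean of 7.51 ± 0.734 (SD, n = 2). HmgZ, the gene of an HMG-box chromatin protein, had a peak at chr2R:21703227-21703647 in its own intron, 603 bp upstream of an internal TSS. Its signal was 1585, and its relative signal was 6.82 in replicate 1 and 7.85 in replicate 3, a mean of 7.34 ± 0.732 (SD, n = 2). The jp peak was above the HmgZ peak in each library, by less than either peak differed between the libraries.

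Lk6 encodes a kinase that phosphorylates the translation factor eIF4E. Its peak at chr3R:11760890-11761212, in its own intron 976 bp upstream of an internal TSS, had a signal of 1500 and reached 6.62 in replicate 1 and 7.12 in replicate 3 as relative signal. A weaker Lk6 peak, with a signal of 171, had its summit 200 bp away. The peak of Reph, 923 bp upstream, had a signal of 1261 and reached 5.10 in replicate 1 and 6.48 in replicate 3 as relative signal. For both genes the value of replicate 3 was the higher, as it was for cbt, jp and HmgZ.

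Chiffon (chif) encodes the fly relative of the replication factor Dbf4 and is known for chorion gene amplification in the ovary. Its peak, 957 bp upstream in its own intron, had a signal of 1226 and reached 5.45 in replicate 1 and 5.78 in replicate 3 as relative signal. NFAT encodes the fly member of the NFAT transcription factors, and its highest peak, 1675 bp upstream in its own intron, had a signal of 1216 and reached 5.21 in replicate 1 and 5.95 in replicate 3 as relative signal. The chif and NFAT ranges overlapped. Tre1 encodes a G protein-coupled receptor that germ cells need in order to migrate through the gut wall of the embryo. Its peak, 1123 bp upstream in its own intron, had a signal of 1043 and reached 3.84 in replicate 1 and 5.55 in replicate 3 as relative signal. A second, weaker Tre1 summit lay close by in the same library region, so the relative signal of that summit is the value of the stronger.

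RasGAP1, the gene of a GTPase activator of Ras, had an intergenic peak 673 bp upstream that had a signal of 1028 and reached 4.45 in replicate 1 and 4.98 in replicate 3 as relative signal. The CG5541 peak, 924 bp upstream in an intron of the ubiquitin ligase gene hiw (highwire), had a signal of 1019 and reached 4.74 in replicate 1 and 4.75 in replicate 3 as relative signal. These libraries thus gave nearly the same value for CG5541. The remaining 10 of the 20 highest upstream peaks had signals of 843 to 1009. They belonged, in falling order, to CG33453 (intergenic), to DNAlig3, the gene of a DNA ligase, to brat, a translational repressor and tumour suppressor, and to InR, the insulin receptor. After them came ph-d, the distal polyhomeotic gene of the Polycomb group, chinmo, a BTB zinc finger gene of neuronal timing, CG17834, sp3, CG4496 and Gdh, the gene of glutamate dehydrogenase. InR had 4.36 in replicate 1 and 4.43 in replicate 3, and brat 4.46 and 4.55. The third highest peak in an intron of another gene was that of CG10734, with a signal of 749, in an intron of lbk.

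**Figure D3:**
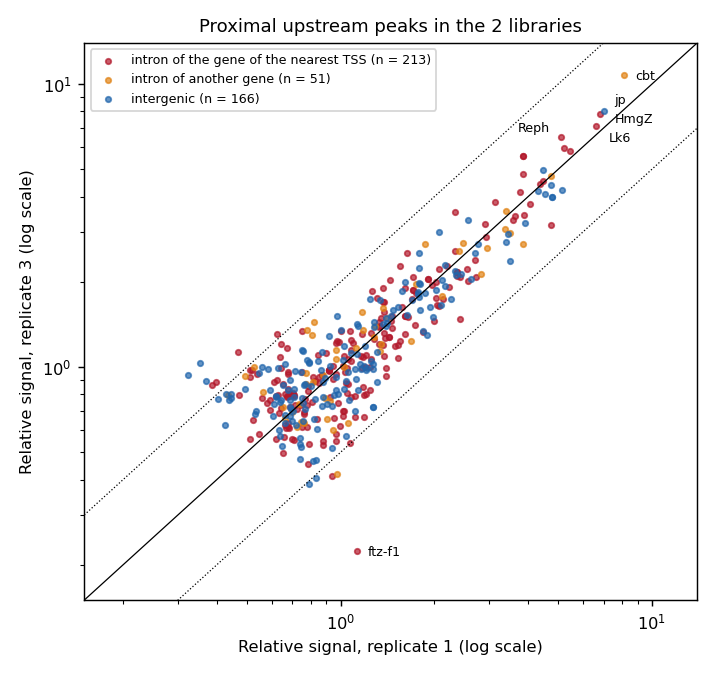
Relative signal of the proximal upstream peaks in replicate 1 (horizontal axis, log scale) and in replicate 3 (vertical axis, log scale), coloured by context, for the 430 peaks with a region in both libraries. The solid line marks equal values and the dotted lines a difference of 1 on the log2 scale. The cbt peak is highest in both libraries and the ftz-f1 peak lies farthest from the line.

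The libraries gave most of these peaks similar weight. Among the strongest regions of a library's own list, as many as the reproducible peaks, replicate 1 and replicate 3 each held 394 (89.7%) of the upstream peaks. Both held 353 of them (80.4%, 95% Wilson interval 76.4 to 83.9%), against 414 (74.3%, 70.5 to 77.8%) of the downstream peaks and 75.4% of all reproducible peaks. Of the upstream peaks 9 (2.05%) had no overlapping region in a library, against 26 (4.67%) of the downstream peaks and 3.54% of all reproducible peaks. All 9 were missing from replicate 1, and the highest of them was the peak of pico, with a signal of 459 and a relative signal of 1.997 in replicate 3. The reproducible list was made from these same libraries, so their overlap is partly built in. A peak could take the value of a neighbour, since 36 upstream peaks (8.20%) shared their library region with another reproducible summit.

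At single peaks the libraries differed by over 1 on the log2 scale for 12 of the 430 upstream peaks with a region in each (2.79%). The same count was 31 of 531 (5.84%) for the downstream peaks and 4.32% for all reproducible peaks. With the library summit nearest to the peak taken in place of the strongest region, it was 20 (4.65%) of the upstream peaks, 38 (7.16%) of the downstream peaks and 6.08% of all. The upstream share was the lowest of the 3 by each matching, and no test was made over peaks of 2 libraries. The typical size of the difference was 0.248 for the upstream peaks, 0.296 for the downstream peaks and 0.274 for all, as a median absolute log2 ratio. Over the 430 peaks Spearman's rho between the libraries was 0.804, against 0.756 over the downstream peaks and 0.776 over all reproducible peaks, as a description of lists drawn from the same libraries.

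The largest difference was at ftz-f1, the gene of a nuclear receptor of the ecdysone cascade. Its relative signal was 1.13 in replicate 1 and 0.224 in replicate 3, a log2 ratio of replicate 3 over replicate 1 of -2.33. The next 4 differences went the other way. CG33286 had 0.354 in replicate 1 and 1.03 in replicate 3, and CG15625 had 0.322 and 0.938. The peak of speck, the gene of an arylalkylamine N-acetyltransferase, had 0.469 in replicate 1 and 1.13 in replicate 3, and that of the ribosomal protein gene RpS23 had 0.370 and 0.891. All 5 were weak peaks, with pooled signals of 128 to 187.

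The libraries placed the summits close together. The summit of the library's own region met the same rule for 407 of 430 upstream peaks (94.7%) in replicate 1 and for 406 of 439 (92.5%) in replicate 3. Most of those that did not were within 500 bp of a TSS by the library's summit, 14 in replicate 1 and 29 in replicate 3. The median shift from the pooled summit was 12 bp in each library, and the median gap between the summits of the libraries was 22 bp.

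Some genes carried several of these peaks. Of the 386 genes, 341 had 1 upstream peak, 38 had 2, 6 had 3 and 1 had 4. The gene with 4 was NFAT, 39.8 kb long with 3 TSSs, and its peaks ranged from 159 to 1216 in signal and lay 727 to 1675 bp upstream of 2 of the TSSs. The 6 genes with 3 were tna, shn, Tlk, psq, CG42258 and ush. Their highest signals were 425 for tna, 399 for shn (schnurri), a zinc finger corepressor of Dpp signalling, and 342 for the kinase gene Tlk. They were 320 for psq (pipsqueak), a DNA-binding BTB protein gene, 293 for CG42258 and 255 for ush. All 22 peaks of these 7 genes were in introns of the gene itself, and the genes were 14.9 to 69.8 kb long with 3 to 8 TSSs. These are counts of summits. At tna, shn and psq neighbouring summits took their values from the same region in each library, so they are not separate there. At NFAT neighbouring summits shared a relative signal of 2.07 in replicate 1, but had 2.22 and 1.65 in replicate 3.

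Genes of upstream peaks were long and often had alternative promoters. Their median length was 11.5 kb and 67.6% of them had more than 1 TSS, against 11.4 kb and 61.6% for the 485 genes of downstream peaks and 2.17 kb and 26.5% for all 13945 protein-coding genes. A long gene with several TSSs offers more sequence that meets the rule. There were 73 genes nearest to both an upstream and a downstream peak, 18.9% of the genes of upstream peaks and 15.1% of those of downstream peaks. Of all protein-coding genes, 3.48% were nearest to a downstream peak.

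The upstream peaks often had another summit nearby. Another reproducible summit lay within 2 kb of 206 (46.9%, 42.3 to 51.6%) of them, of 274 (49.2%, 45.1 to 53.3%) of the downstream peaks and of 39.96% of all reproducible peaks. The nearest companion of the 206 was a promoter peak in 84 cases, another upstream peak in 58, a downstream peak in 22 and a peak of another kind in 42. The upstream peak was the higher of the pair in 100 of the 206. Some companions were further summits of the same library region, which 36 upstream peaks (8.20%) shared with another reproducible summit. The gene itself also carried a promoter peak for 181 upstream peaks (41.2%), against 229 (41.1%) of the downstream peaks. Among upstream peaks that share was 57.5% in introns of the gene, 26.5% in intergenic sequence and 19.2% in introns of another gene. A summit within 500 bp of any TSS of the gene counted here. The nearest gene had a median of 3 TSSs for peaks in its own introns, against 1 in each of the other contexts. That contrast is therefore partly set by the definitions.

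The 181 upstream peaks whose gene also had a promoter peak belonged to 151 genes. Each was set against the strongest promoter peak of its gene, so a gene with several upstream peaks entered more than once. The upstream peak was the higher for 69 of 181 (38.1%), and the median ratio of upstream to promoter signal was 0.847 (quartiles 0.495 and 1.32). Taking the strongest promoter peak lowers the ratio where a gene has several. Several of the strongest upstream peaks went the other way. They were picked by their upstream signal, which is also the upper part of the ratio, so high ratios are partly built in. The upstream peak of Lk6 had 1500 and its promoter peak 189, a ratio of 7.93. The ratio was 7.34 for chif, 6.77 for Reph and 5.87 for InR. At cbt both were strong, with 2106 upstream and 820 at the promoter, a ratio of 2.57.

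Gene lists of pathways and families show which kinds of genes had an upstream peak. Of all protein-coding genes, 2.77% were nearest to one. Most lists of regulatory and signalling genes were above that share, and the lists differ in gene length. Among bZIP, KLF and immediate early regulators it was 5 of 22 (22.7%, 95% Wilson interval 10.1 to 43.4%, median gene length 23.2 kb), led by cbt and by Atf3, a bZIP stress factor, with signals of 2106 and 412. Among Notch, Wnt, Hedgehog and BMP signalling genes it was 7 of 42 (16.7%, 8.32 to 30.6%, 13.7 kb). They were led by brk (brinker), the repressor of Dpp target genes, which had a signal of 684 and reached 3.85 in replicate 1 and 2.72 in replicate 3 as relative signal, and by the Smad gene Mad, with 540, 2.70 and 2.38. The brk summit was within introns of CG1677 and of a long non-coding RNA gene, and both libraries placed brk and Mad above 2.

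Among receptor tyrosine kinase and JAK-STAT genes 5 of 33 (15.2%, 14.9 kb) had an upstream peak, with InR at 939 and the ETS repressor gene aop (yan) at 565. Muscle genes had 3 of 23 (13.04%, 9.11 kb), with the nesprin gene Msp300 at 632 and rols at 277 as the 2 highest genes. Axon guidance and adhesion genes had 6 of 47 (12.8%, 37.8 kb), with the cadherin gene ds (dachsous) at 419 and the teneurin gene Ten-a at 276. Ecdysone response and nuclear receptor genes had 3 of 27 (11.1%, 22.4 kb), with the ecdysone receptor gene EcR at 177 and Eip75B at 143. Insulator and promoter architecture genes had 2 of 20 (10%, 3.51 kb), which were lola at 361 and psq at 320. Heat shock and chaperone genes also had 2 of 22 (9.09%, 2.36 kb), which were the co-chaperone gene stv at 616 and Hsc70-3, the gene of the BiP chaperone, at 400.

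Actin, junction and polarity genes had 3 of 34 (8.82%), with ed (echinoid) at 334 and the formin gene dia at 221. Embryonic tissue transcription factors had 4 of 55 (7.27%), with the FoxF gene bin (biniou) of the visceral mesoderm at 670 and dac (dachshund) at 192. Neuronal excitability and synapse genes had 2 of 28 (7.14%, 34.6 kb), the syntaxin gene Syx1A at 151 and dlg1 at 143. Segmentation and Hox genes had 2 of 34 (5.88%), Abd-B at 205 and Dfd at 137, and Polycomb and trithorax genes 1 of 27 (3.70%), ph-d at 931. The quartiles over all reproducible peaks were 156 and 315. The peaks of ed, bin and ph-d were above the upper quartile, those of dia, dac and Abd-B between the quartiles, and those of Syx1A, dlg1 and Dfd below the lower. The wide intervals of such short lists include the share over all genes for several of them, and no list was tested.

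The remaining lists were below 2.77%, and their median gene lengths were 0.909 to 2.10 kb except in the dynein and dynactin list, at 5.77 kb. The part of gene length in these shares was not tested. Cytochrome P450 genes had 2 of 85 (2.35%), Cyp4d20 at 160 and Cyp6v1 at 130, and chemosensory genes 3 of 231 (1.30%), led by the odorant co-receptor gene Orco at 196 and Obp99c at 181. Cytosolic ribosomal protein genes had 1 of 93 (1.08%), the weak RpS23 peak at 133, although 75.3% of them had a promoter peak. The dynein and dynactin, mitochondrial ribosomal protein and cuticular protein lists had none among 16, 73 and 117 genes. For these 3 lists the upper ends of the 95% Wilson intervals were 19.4%, 4.999% and 3.18%, so the lists allow shares at or above that of all genes. Over all 19 lists 50 of 1020 genes had an upstream peak and 46 a downstream peak, so such shares were not particular to upstream peaks. Receptor tyrosine kinase and JAK-STAT genes had 9 of 33 (27.3%) with a downstream peak. Actin, junction and polarity genes had 7 of 34 (20.6%), and both were above their upstream shares. Axon guidance and adhesion genes, at 2 of 47 (4.26%), and bZIP, KLF and immediate early regulators, at 4 of 22 (18.2%), were below theirs.

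The large chromosome arms had similar densities of upstream peaks. Per Mb of sequence that met the rule there were 67.8 on X, 64.0 on 2L, 62.0 on 3L, 61.5 on 2R and 53.1 on 3R. The small chromosome 4 had 1 peak in 0.0708 Mb. The X chromosome held 90 (20.5%) of the upstream peaks and 16.2% of all reproducible peaks.

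The summits were A+T-rich against the sequence beside them. The window reaching 50 bp to either side of an upstream summit had 67.2% A+T ± 8.11 (SD, n = 439 peaks), and the mean of the 2 windows centred 300 bp to either side had 57.4% ± 7.94 (SD, n = 439 peaks). The summit window was the richer for 343 peaks (78.1%). Summit windows of downstream peaks had 66.7% ± 7.88, those of all reproducible peaks 66.3% ± 8.77, and windows of the same length that met the rule with no summit within 500 bp 60.3% ± 9.61. No test was made over peaks. The upstream summits ranged from 39.6% at COX7AL2 to 90.1%, with a median of 68.3%, and speck was at 43.6%. A peak could be strong without being A+T-rich, as at CG5953, with a signal of 752 and 47.5% A+T, or at sp3, with 906 and 50.5%.

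**Figure D4:**
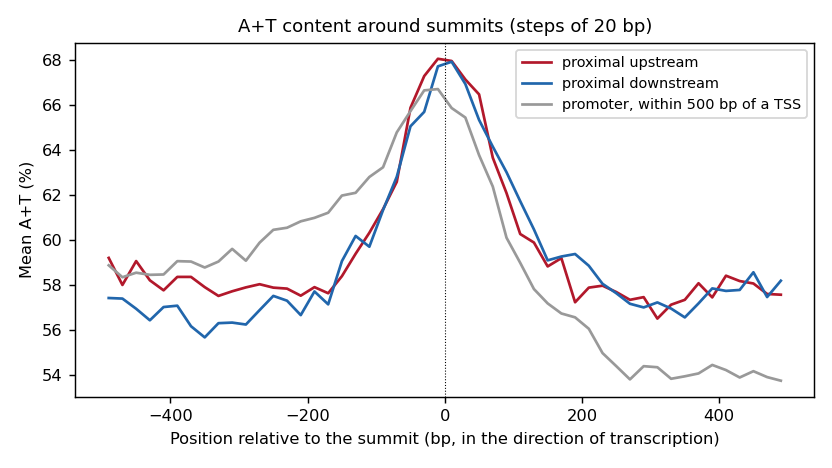
Mean A+T (vertical axis, %) in steps of 20 bp against the position relative to the summit (horizontal axis, bp, in the direction of transcription of the nearest gene), for proximal upstream peaks (red), proximal downstream peaks (blue) and promoter peaks (grey). The upstream and downstream peaks have nearly the same shape, high at the summit and near the level of the flanks 300 bp away on either side, while the promoter curve is lower on its downstream side.

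Unbroken runs of A and T followed the same pattern. A run of 8 or more was present in 337 (76.8%) of the upstream summit windows, in 52.6% of their flanks, in 76.1% of the downstream summit windows, in 75.1% of those of all peaks and in 60.1% of the windows with no summit nearby. The median longest run was 10 bases at the upstream summits and 8 in their flanks.

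Short motifs were looked for on both strands of the same windows. A match is a match of letters and need not be a bound site, and motifs made of A and T follow the base composition. AATATTTA and AAATATAT, the 8-base words that earlier work on these peaks had put first, were in 6.83% and 6.38% of the upstream summit windows, each in 1.71% of their flanks, and in 3.02% and 3.23% of the windows with no summit nearby. Among all reproducible peaks they were in 6.51% and 6.12%. These words were taken from the peaks of this same list, the upstream peaks included. Their excess at the summits is therefore partly built in. TATAAA, the core of the TATA box, was in 21.9% of the summit windows, 11.6% of the flanks and 13.97% of the windows with no summit nearby. TGTTTAC, the core bound by forkhead factors and present in the jp and Lk6 windows printed above, was in 5.69%, 2.96% and 2.22%. GATAAG, a motif of the zinc finger factors serpent and pannier that is also in the Tre1 window, was in 8.20%, 4.21% and 4.69%. In each of these cases the downstream peaks were close to the upstream peaks, with 6.10%, 5.03%, 21.7%, 5.39% and 7.72% in the same order of motifs.

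The remaining motifs were higher at the summits in some cases and lower in others. The homeodomain core TAATTA was in 9.34% of the summit windows and 7.63% of the flanks, AAAAAAAA in 9.57% and 7.40%, and the octamer ATTTGCAT in 3.42% and 1.37%. ATATATAT was in 3.42% of the summit windows and 1.25% of the flanks. In windows with no summit nearby these motifs were in 8.38%, 6.54%, 2.10% and 2.06%, in the same order. For ATTTGCAT that share is within the 95% Wilson interval of the summit share, 2.08 to 5.56%. The repeats GAGAGAG, which GAGA factor binds, and CACACACA were in 1.14% and 1.37% of the summit windows, and in 3.53% and 4.44% of the flanks. In windows with no summit nearby these repeats were in 1.38% and 2.21%. Both of those shares are within the 95% Wilson intervals of the summits, 0.487 to 2.64% and 0.628 to 2.95%, and below the flanks. The E-box CACGTG was in none of the 439 summit windows (95% Wilson interval up to 0.867%) and in 1.25% of the flanks. The AP-1 motif TGACTCA was in 1.14% and 0.683%. TATCGATA, the Dref element of many housekeeping promoters, was in 0.228% of the upstream summit windows and of their flanks, against 0.944% of the summit windows of all reproducible peaks. Its core ATCGAT was in 2.28% and 2.05%, and CAGGTAG, the motif of the early activator Zelda, in 0.228% of each.

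**Figure D5:**
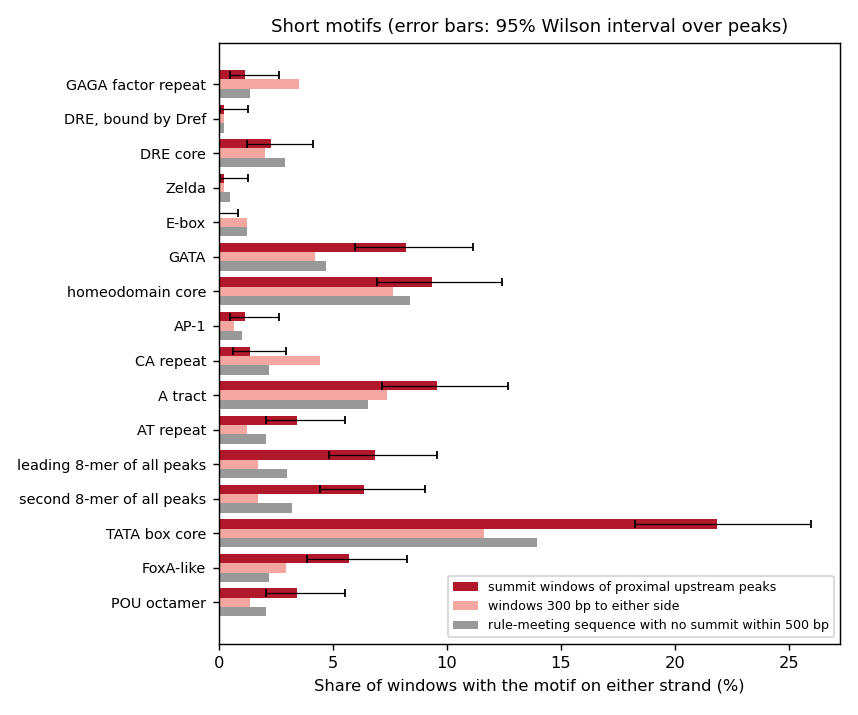
Share of windows of the summit length with each motif on either strand (horizontal axis, %), for the 439 proximal upstream summits (red, with 95% Wilson intervals over peaks), the windows 300 bp to either side (pink) and windows that met the rule with no summit within 500 bp (grey). The TATA box core is highest at 21.9% of summits and 11.6% of flanks, and the GAGA and CA repeats are lower at the summits than beside them. In windows with no summit within 500 bp these repeats are at 1.38% and 2.21%.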

How the data were processed

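The authors' deposited peak lists in dm6 were used. The authors deposited each region with the peak caller's signal, on a scale that differs between lists. Neither aligner nor caller is named in the sources used here. There are no counts in the files, and depth per library is therefore unknown. The main list was the authors' reproducible list, kept by the irreproducible discovery rate from replicates 1 and 3, with 5085 peaks. Per the deposited file listings, both replicates were called against the same control, which is not analysed here. The dm3 lists were not used here. The replicate lists hold 30000 regions each.

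Summits were placed by the deposited offsets, 1-based, on 2L, 2R, 3L, 3R, 4 and X. Annotation was Ensembl 115 (BDGP 6.54), transposable elements left out, and sequence from RefSeq's release 6 assembly, the same build. A tie between genes at the nearest TSS occurred for 4 peaks. A region of a replicate list matched a peak if they overlapped by at least 1 bp. Intervals are 95% Wilson intervals. No test was made, as there was 1 group of 2 libraries. Of the summits 501 to 2000 bp from the nearest TSS, 219 were nearest to a non-coding gene or pseudogene and 22 upstream ones lay in exons, and these were left out.

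The peaks, gene lists and motifs were chosen with earlier results of these data known. Genes were named by a rule: the 20 highest peaks, the 3 highest per context, genes with 3 or more peaks, the 2 highest per gene list, the 5 largest library differences and the peaks nearest the distance bounds. Other genes named were chosen after their values were seen. Placement and matching were tested on simulated peaks. Alternatives were other TSS sets, peak positions, list thresholds, windows, scalings, overlaps and each library alone. Scripts ran in Python 3.11.15 (numpy 2.4.6, pandas 2.3.3); intervals used scipy 1.17.1 and figures matplotlib 3.10.9.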

Additional observations from a re-analysis of the deposited data

How the results depend on the processing

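The alternatives gave counts, shares and levels of the upstream peaks, with no contrast of conditions. Apart from the differences between libraries, values of the downstream peaks, all peaks, flanks and windows with no summit nearby were not recomputed. Whether the other comparisons hold under the alternatives was therefore not examined. The number of upstream peaks was 248 with 1 TSS per gene at its 5′ end, which removes every internal TSS. It was 488 with protein-coding transcripts only, and with RefSeq's annotation, chosen after seeing the data, it was 439, all of them shared. The annotations have 22882 TSS positions in common, with 23265 TSSs in RefSeq and 23998 in Ensembl, so that outcome was nearly fixed in advance. From the strongest regions of 1 library alone the number of upstream peaks was 418 and 474. The median distance was 1030 bp among peaks above the median signal. The median relative signal was 3.30 when each library was scaled by all its deposited regions. When only the upper 0.5 of each library's list of strongest regions counted, 45.8% of the upstream peaks were in both. The count differing by over 1 log2 was 20 with the nearest library summit, an alternative chosen after seeing the data, and 18 when a region had to overlap at least 0.5 of the peak. Mean A+T was 67.6% within 25 bp of the summit, 65.1% within 100 bp and 67.6% among peaks above the median signal, and 66.8 to 67.3% in 1 library alone. AATATTTA was in 10.7% of windows reaching 100 bp to either side. Another summit lay within 1 kb of 118 upstream peaks. Of 38 alternatives for the main results, 27 left the value within its spread or within 1.5 times the count, and for the motif shares 33 of 45 did. Some of these outcomes were fixed in advance. For the median relative signal each library alone had to lie within the spread, which was taken from the same 2 values. No paired analysis was possible because there was 1 group. Depth is unknown, so what it limits cannot be given.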

Other observations

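The 9 upstream peaks with no region in replicate 1 were those of pico, CG10543, mars, apt, alt, orion, COX7AL2, CG42336 and CG31689, with relative signals in replicate 3 of 0.484 to 1.997. Each had a region in replicate 3, 8 of the 9 were in introns of the nearest gene and none was intergenic. The strongest upstream peaks with a promoter peak of nearly the same height were by, at 778 upstream and 725 at the promoter, and CG5953, at 752 and 785.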
